A study of Homo sapiens with 2 samples.

Results

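H1299 is an established human non-small cell lung cancer line, and the study sequenced its mRNA without and with metformin, a biguanide used against type 2 diabetes. The data were 1 library of untreated cells (control) and 1 library of cells given 5 mM metformin, and no source used here gives the duration of treatment. The 10 genes described here belong to cellular zinc handling. They were taken by NCBI gene ID from a fixed list of symbols, out of 27685 gene IDs in each table, and all 10 had a row in both. They are the zinc sensor MTF1, the metallothioneins MT2A, MT1X and MT1E, the zinc exporters of the SLC30 (ZnT) family SLC30A1 and SLC30A5, and the importers of the SLC39 (ZIP) family SLC39A6, SLC39A7, SLC39A10 and SLC39A14. Levels are in TPM, a unit of transcript abundance that divides out transcript length and gives each gene as a share of its library. With 1 library per group no difference has a replicate check and no test was run. The 95% intervals given with TPM ratios cover the counting of reads only, not the variation between cultures.

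Zinc is a cofactor of many enzymes and transcription factors, and cells hold its free concentration low. Transporters of the SLC39 family bring zinc into the cytosol from outside or from organelles, those of the SLC30 family move it out of the cytosol, and metallothioneins are small cysteine-rich proteins that bind it. MTF1 is a zinc finger transcription factor that binds metal response elements when zinc rises, and metallothionein genes and SLC30A1 are its classical targets.

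The metal response element core was searched as TGCACNC and TGCGCNC on both strands of the 250 bases before the transcription start. Promoter sequences came from RefSeq (GRCh38.p14 table), which held entries for 8 of the 10 genes; MT1E and SLC39A14 had none. At least 1 match was present in 24.8% of all 35116 promoter entries. The MT2A promoter held 7 matches, a number reached by 0.0313% of entries, and the MT1X promoter held 4, reached by 0.370%. SLC30A1 and SLC39A6 had 1 match each, and MTF1, SLC30A5, SLC39A7 and both entries of SLC39A10 had 0 in this window. Among zinc genes outside the 10, MT1H had 8 matches and MT1B, MT4 and SLC30A2 had 3 each. All 4 of these were listed at 0 TPM in both libraries. The shares were not matched for GC content, which was 73.2% in the MT2A promoter and 70.0% in that of MT1X. A match is a description of letters and not a shown binding site. The promoters of the classical MTF1 targets are shown because their TPM ratios between the libraries were unlike, near 1 for MT2A and MT1X and below 1 for SLC30A1. Capitals mark the matches, and a match to the reverse strand appears as its complement, read backwards. Each stretch had 1 exact match on the given strand of its own chromosome in GRCh37, and the other chromosomes were not searched. The places were MT2A at chr16:56642246-56642495 on the plus strand, MT1X at chr16:56716132-56716381 on the plus strand and SLC30A1 at chr1:211752504-211752753 on the minus strand.
MT2A: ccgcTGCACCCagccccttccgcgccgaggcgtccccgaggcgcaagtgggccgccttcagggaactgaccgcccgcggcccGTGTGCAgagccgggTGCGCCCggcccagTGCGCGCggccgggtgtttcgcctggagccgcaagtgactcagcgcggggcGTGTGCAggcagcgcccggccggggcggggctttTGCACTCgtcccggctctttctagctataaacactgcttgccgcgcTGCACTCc
MT1X: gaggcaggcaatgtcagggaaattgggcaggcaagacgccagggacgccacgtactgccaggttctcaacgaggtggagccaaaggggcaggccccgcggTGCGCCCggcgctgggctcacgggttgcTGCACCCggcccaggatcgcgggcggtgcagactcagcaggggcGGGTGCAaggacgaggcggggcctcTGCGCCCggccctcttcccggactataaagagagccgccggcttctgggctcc
SLC30A1: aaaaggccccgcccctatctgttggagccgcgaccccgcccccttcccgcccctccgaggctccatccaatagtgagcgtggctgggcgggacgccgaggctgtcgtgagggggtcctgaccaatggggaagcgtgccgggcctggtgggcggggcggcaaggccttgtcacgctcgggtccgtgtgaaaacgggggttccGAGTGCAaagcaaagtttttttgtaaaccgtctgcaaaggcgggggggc

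**Figure D1:**
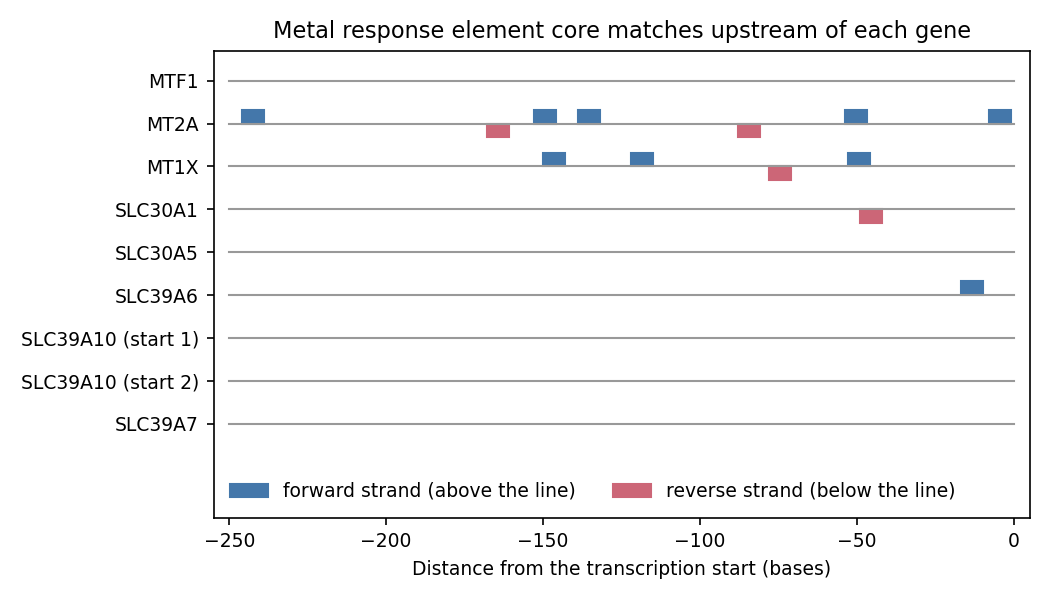
Positions of metal response element core matches in the 250 bases before the transcription start, for the 8 genes with a RefSeq promoter entry (horizontal axis in bases from the start, 1 line per entry, 2 entries for SLC39A10). Boxes above a line are forward matches and boxes below it reverse matches; MT2A has 7 and MT1X 4, and every other entry has 1 or 0.

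None of the 10 genes differed by 2-fold or more between the libraries on the log2(TPM + 1) scale. Across the 14078 genes at 1 TPM or more in at least 1 library (measured genes), 1.51% were higher and 1.24% lower in metformin by that rule, so a count of 0 among so few genes is near the background. The metallothioneins, MTF1, SLC30A5, SLC39A7 and SLC39A14 were listed at close to the same level in both libraries. SLC30A1, SLC39A10 and SLC39A6 were listed lower in metformin, at 0.630, 0.637 and 0.763 of their control TPM. At 1.5-fold, a threshold chosen after the values were seen, SLC30A1 and SLC39A10 were lower and 0 genes were higher, against 7.03% and 5.4% of measured genes. SLC30A1 passed it narrowly, at -0.594 against -0.585, and both genes fell short of it under 6 of 9 other settings of the processing. Among those 6, a larger pseudocount and the smaller FPKM unit shrink a difference through the added constant. The settings they still passed were a lower pseudocount and the changes of minimum level, which cannot alter a gene's own difference. The 9 measured genes had a median log2 difference, metformin minus control, of -0.02, and with MT1E, which was listed at 0, the median over all 10 was -0.01; over all measured genes it was -0.08. The summed level of the 10 genes was 1376 TPM in control and 1373 TPM in metformin, of which MT2A was the largest part.

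**Figure D2:**
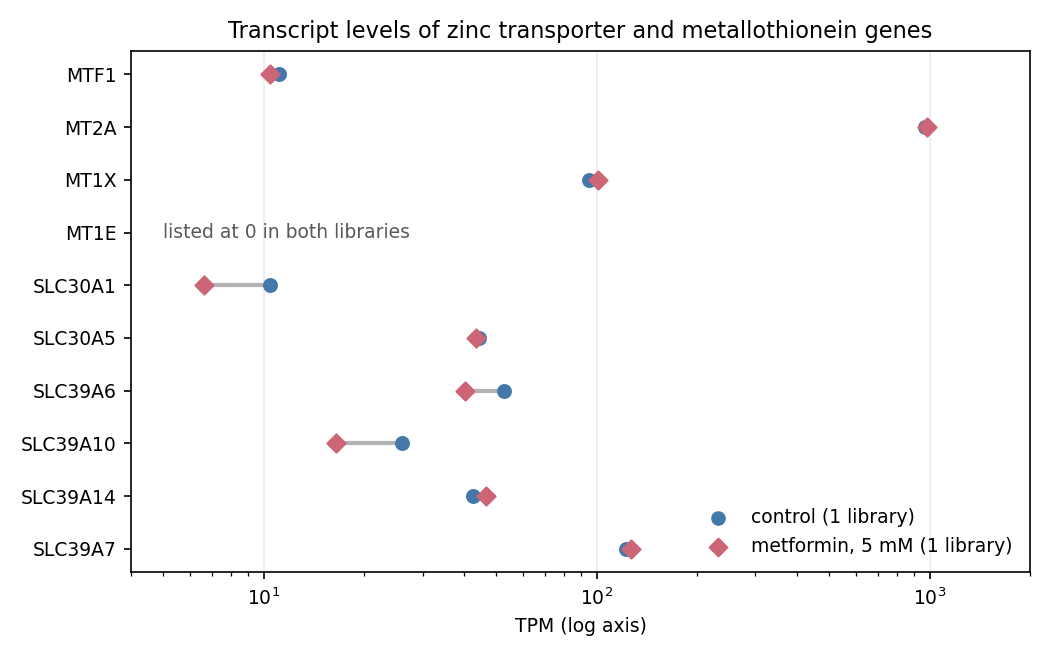
TPM of the 10 genes on a log axis, with a circle for the control library and a diamond for the metformin library. The circle and diamond nearly coincide for 6 genes, lie apart with the diamond lower for SLC30A1, SLC39A6 and SLC39A10, and are not drawn for MT1E, which was listed at 0 in both.

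MTF1, on chromosome 1 at 38275239 to 38325292 of hg19, was listed at 11.1 TPM in control and 10.4 TPM in metformin. The ratio was 0.939, and its 95% counting interval of 0.863 to 1.02 included 1. The log2 difference of -0.08 lay at the middle of the transcriptome, with 49.6% of measured genes below it.

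MT2A, the main metallothionein of many human cell types, was listed at 972 TPM in control and 982 TPM in metformin. It was by far the most abundant of the 10 genes, ranking 127th and 128th of all genes in the respective libraries. Its TPM ratio was 1.01, with a counting interval of 0.971 to 1.05. MT1X, a related isoform, had 94.95 TPM and 101 TPM, a ratio of 1.06 with an interval of 0.937 to 1.20. The level of MT2A was thus 10.2 times that of MT1X in control and 9.74 times in metformin. On the deposited TPM, neither transcript differed between the libraries beyond counting error. For MT2A this depended on the scaling. Its log2 difference of 0.01 became 0.10 when centred on the median of well expressed genes, which lay outside its counting interval. With the GC and length trend removed it was -0.10. That step leaves in the shift of the median gene, -0.08 over all measured genes, so this value is near the middle of the genes and is not read against the interval.

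MT1E was listed at 0 in both libraries. Its row lies on chromosome 16 at 56659585 to 56661024 of hg19, between MT2A (56642478 to 56643409) and MT1X (56716382 to 56718108), in the metallothionein cluster. The tables hold 15 genes and pseudogenes of this cluster, over 119 kb, and MT2A and MT1X were the 2 listed above 0. MT1A, MT1B, MT1F, MT1G, MT1H, MT1M, MT3 and MT4 were at 0 in both libraries, like MT1E. In the control table the MT1E row stands in a closing block of 6511 rows that all hold 0, and in the metformin table it stands in the body, also with 0. No source used here says why the rows were placed so.

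Metallothionein transcripts are short and alike, and reads can be exchanged between them. The MT2A and MT1X transcripts of GENCODE 44 on GRCh37, 401 and 404 bases long, had 63 bases as their longest identical stretch, and 13.5% of the 31-base words of MT2A were also in MT1X. The MT1E transcript shared 0.279% of its 31-base words with MT2A and 0.698% with MT1X, with longest stretches of 32 and 35 bases. The longest stretch shared by any other metallothionein with MT2A or MT1X was 96 bases, between MT1G and MT1X, against an inferred read length of 101 bases. No source used here says how the counting treated reads with several matches, so the split between these genes is uncertain.

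SLC30A1, also called ZnT1, sits in the plasma membrane and exports zinc from the cell. It was listed at 10.5 TPM in control and 6.60 TPM in metformin. The ratio was 0.630 with a counting interval of 0.519 to 0.765, the widest interval below 1 among the 10 genes, from an estimated 257 and 183 read pairs. Its log2 difference was -0.59, with 6.79% of measured genes below it. The deposited row runs from 211748381 to 211752099 on chromosome 1, shorter at both ends than the GENCODE model, which runs from 211744910 to 211752503. Of the 3 MTF1 targets whose promoters are printed above, SLC30A1 was thus listed lower in metformin while MT2A and MT1X were not.

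SLC30A5, or ZnT5, loads zinc into the early secretory pathway, where it works as a heterodimer with SLC30A6. The level of SLC30A5 was 44.2 TPM in control and 43.5 TPM in metformin, with a ratio of 0.983 (0.927 to 1.04). That of SLC30A6 was 23.7 and 19.1 TPM, with a ratio of 0.805 (0.747 to 0.867). The level of SLC30A5 relative to its partner was therefore 1.87 in control and 2.28 in metformin.

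The importers SLC39A6 and SLC39A10, or ZIP6 and ZIP10, are close relatives that form a heteromer in the plasma membrane. SLC39A10 stood at 25.9 TPM in control and at 16.5 TPM in metformin, with a ratio of 0.637 (0.591 to 0.687) and a log2 difference of -0.62. SLC39A6 stood at 52.6 TPM and 40.1 TPM, with a ratio of 0.763 (0.718 to 0.810) and a log2 difference of -0.38. Both were lower in metformin beyond counting error, and 6.04% and 17.2% of measured genes had a lower difference than SLC39A10 and SLC39A6. SLC39A6 was listed at 2.03 times the level of SLC39A10 in control and 2.43 times in metformin. The SLC39A10 row, from 196521532 to 196602426 on chromosome 2, starts downstream of the GENCODE model, whose start is 196440701.

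SLC39A14 and SLC39A7 had ratios slightly above 1. The log2 difference of SLC39A7 was 0.05, and -0.03 with the GC and length trend removed. Removing the trend leaves in the shift of the median gene, -0.08 over all measured genes, so -0.03 is not a lower place among the genes than 0 would be without that shift. SLC39A14, or ZIP14, is a plasma membrane importer of zinc, iron and manganese. Its level was 42.6 TPM in control and 46.5 TPM in metformin, and the ratio was 1.09, whose interval of 1.03 to 1.15 did not include 1. SLC39A7, or ZIP7, releases zinc from the endoplasmic reticulum into the cytosol. It was the most abundant of the 6 transporters, at 122 TPM in control and 127 TPM in metformin, with a ratio of 1.04 with an interval of 0.993 to 1.09. The SLC39A7 row overlaps RXRB on the opposite strand by 28 bases. Among the 10 genes, 4 had an interval without 1 (SLC30A1, SLC39A6, SLC39A10 and SLC39A14), against 65.4% of the 13102 measured genes for which an interval could be computed, since counting error at this depth is small.

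In order of level, the control library had MT2A, SLC39A7, MT1X, SLC39A6, SLC30A5, SLC39A14, SLC39A10, MTF1 and SLC30A1. In metformin the order of SLC39A6, SLC30A5 and SLC39A14 was turned round, and the remaining order was the same. Without replicates it cannot be said which neighbours differ beyond the spread between cultures.

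The 3 lower genes have transcripts of low GC content, a property with which the difference went across the whole transcriptome. GC content was 37.1% for SLC39A10, 40.7% for SLC30A1 and 41.6% for SLC39A6. With the measured genes sorted by GC content into 10 classes of equal size, the class that holds SLC39A10 had a median log2 difference of -0.27, and the class that holds the other two had -0.17. Within their own classes 14.0% of genes lay below SLC39A10, 8.0% below SLC30A1 and 23.2% below SLC39A6. With the trend over GC content and length removed, the log2 differences were -0.41 for SLC39A10, -0.45 for SLC30A1 and -0.26 for SLC39A6. SLC30A5, with a GC content of 38.4%, stood at -0.02 where the median of its class was -0.22, and 76.2% of that class lay below it. MT2A, at 55.6%, was at the median of its class, 0.01 against 0.02.

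**Figure D3:**
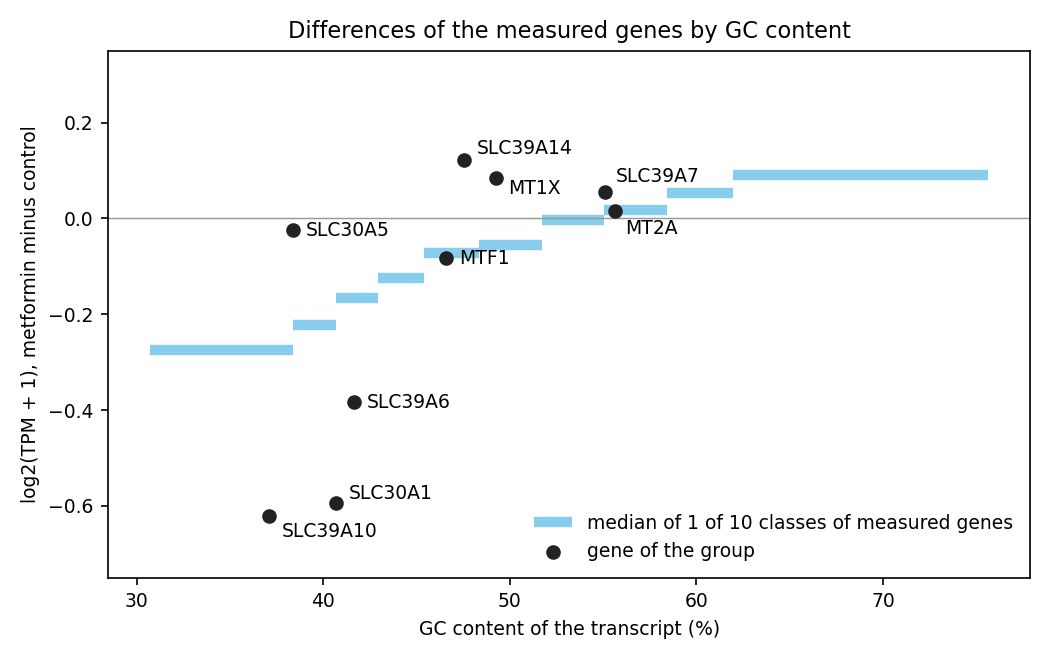
Log2(TPM + 1) difference, metformin minus control, against the GC content of the transcript in percent. Points are the 9 measured genes and bars the median of each of 10 classes of measured genes by GC content, from -0.27 to 0.09; SLC39A10, SLC30A1 and SLC39A6 lie below the bars of their classes and SLC30A5 above.

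The wider list of zinc genes held 37 genes, of which 21 were measured and 14 were listed at 0 in both libraries. SLC30A3 and SLC30A10 were above 0 in at least 1 library but below 1 TPM in both. SLC30A3 had 0.149 and 0.535 TPM, a plain ratio of 3.60 (1.15 to 14.9) from an estimated 4 and 15 read pairs. On the log2(TPM + 1) scale 0 of the 37 differed by 2-fold in either direction. At 1.5-fold on the same scale, 2 of the 21 were lower, the same SLC30A1 and SLC39A10, and 0 were higher. Of all measured genes 7.03% were lower and 5.4% higher. The calls of SLC30A1 and SLC39A10 are the ones lost under most other settings. An interval without 1 was found for 12 of the 21, against 65.4% of measured genes with an interval, so it does not set the zinc genes apart. Besides the genes above, SLC39A8, SLC30A7, SLC39A1, SLC39A9 and SLC30A6 had ratios below 1 with intervals that left out 1. With the GC and length trend removed, the log2 difference of SLC30A7 went from -0.35 to -0.14 and that of SLC30A6 from -0.30 to -0.10. That of SLC39A8 went from -0.45 to -0.35 and that of SLC39A9 from -0.37 to -0.29. SLC39A1 moved further from 0, from -0.38 to -0.48. SLC39A8, or ZIP8, the closest relative of SLC39A14, had 36.8 and 26.7 TPM, a ratio of 0.727 (0.672 to 0.786). SLC39A1, or ZIP1, a widely expressed plasma membrane importer, had 111 and 85.2 TPM, a ratio of 0.766. SLC30A7, which loads zinc into the Golgi, stood at 0.764 and SLC39A9 at 0.771. SLC30A4, SLC39A11 and SLC39A13 had ratios above 1 with intervals that left out 1. SLC39A13, or ZIP13, had 20.0 and 25.8 TPM, a ratio of 1.29 (1.16 to 1.44), SLC39A11 had a ratio of 1.32 and SLC30A4 1.41. With the trend removed, their log2 differences went from 0.35 to 0.20 for SLC39A13, from 0.36 to 0.34 for SLC39A11 and from 0.36 to 0.51 for SLC30A4. TMEM163, a zinc efflux protein, was at 0.736 and 1.26 TPM, with an interval of 0.930 to 3.29 that included 1, and it reached 1 TPM in metformin alone. Its plain ratio was 1.72, but its log2(TPM + 1) difference was 0.38, short of 1.5-fold on that scale. SLC30A9, SLC39A4 and SLC39A3 had ratios of 0.9997, 1.04 and 0.932 with intervals that included 1.

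By family, the TPM of all SLC39 genes summed to 576 in control and 523 in metformin, with a ratio of 0.908, and that of all SLC30 genes to 163 and 153, a ratio of 0.936. The metallothioneins summed to 1067 and 1082 TPM, a ratio of 1.01. Of 11 measured SLC39 genes 6 lay below 0 and 5 above, and of 6 measured SLC30 genes 5 lay below 0, where 59.7% of all measured genes did. Of those 5, SLC30A9 and SLC30A5 were very near 0, at -0.0005 and -0.02, and the sign of SLC30A5 differed between settings.

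**Figure D4:**
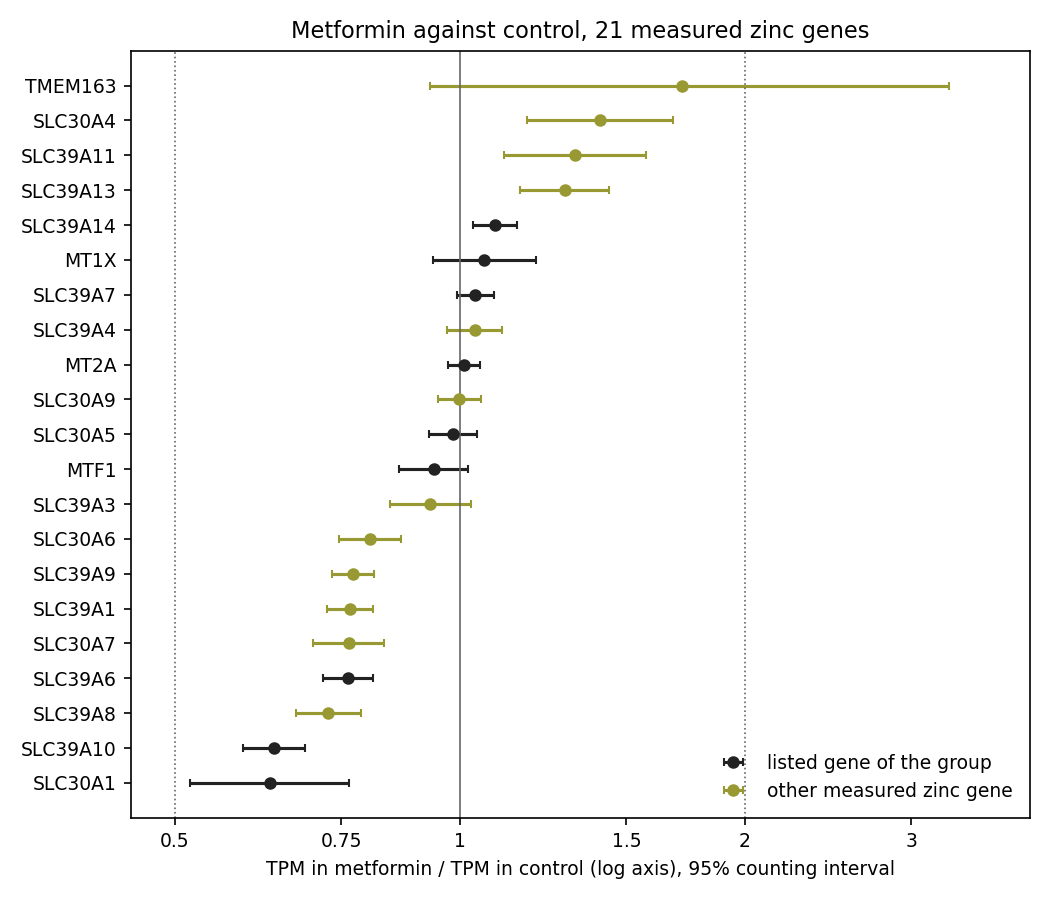
TPM ratio of metformin to control on a log axis for the 21 measured zinc genes, with 95% counting intervals; the solid line marks a ratio of 1 and the dotted lines 0.5 and 2. All 21 ratios lie between the dotted lines, from 0.630 for SLC30A1 to 1.72 for TMEM163, whose interval is the widest.

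Metallothioneins also bind copper, and the 10 genes of the copper handling list were all measured. Their median log2 difference was -0.09, with 4 above 0, 6 below and 0 at 2-fold; the median of all measured genes was -0.08, with 59.7% below 0 and 1.51% and 1.24% higher and lower at 2-fold. CCS, the copper chaperone of superoxide dismutase, had 26.8 and 39.8 TPM, a ratio of 1.48 (1.29 to 1.70), and SLC31A1, the copper importer CTR1, at 29.7 and 38.4 TPM, a ratio of 1.29. COX17, which carries copper to cytochrome c oxidase, stood at 0.837 and the copper exporter ATP7B at 0.821 of control.

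The libraries held 5.80 Gb (control) and 6.40 Gb (metformin) of aligned bases. Checked against markers of the labelled cell type, VIM, a mesenchymal filament, was listed at 4378 and 4962 TPM and the epithelial keratin KRT18 at 553 and 954, while the epithelial markers KRT19, EPCAM, CDH1 and the lung markers NKX2-1, SFTPB, SFTPC and SCGB1A1 were each under 0.5 TPM. Of 5 markers of other cell types, PTPRC, PECAM1, COL1A1 and ALB were at 0.342 TPM or less, and CD68, a lysosomal protein also made outside macrophages, was at 148 and 115 TPM.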

How the data were processed

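Per the labels' protocols, a stranded mRNA kit was used and Bowtie2 aligned the reads to hg19; the submitters' processing notes also name Trimmomatic 0.38 and HISAT2. The abundance program, its use of strand and its handling of reads with several matches are not given in the sources used here. TPM was computed by the authors and used as deposited for all main values. FPKM and coverage (a signal whose exact definition the sources used here do not give) were likewise deposited, and served for depth and alternatives. Coverage was not a fixed multiple of FPKM. In control SLC39A10 had an FPKM of 11.0 and a coverage of 12.0, and SLC30A1 had 4.44 and 25.7. Symbols came from a RefSeq table (names only), which matched 27559 of 27685 IDs; rows of an ID listed more than once were summed. Coordinates are those of the deposited rows.

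The members and lists were chosen with earlier results of these data known. Differences are log2(TPM + 1), metformin minus control, so those of low genes are understated; ratios are of plain TPM. A gene counted as measured at 1 TPM or more in at least 1 library, and was called at a difference of at least 1 in size (2-fold). Read pairs were estimated from FPKM, the depth (28.7 M and 31.7 M pairs of 202 bases, a length inferred from coverage of short rows) and the GENCODE 44 canonical transcript within the deposited row; ratio intervals are exact (Clopper-Pearson) at 95%. The GC and length trend was a quadratic fit over 13123 genes (93.2% of those measured), removed around its median. Named genes were all 10 members, the other measured zinc genes, and the 2 highest and 2 lowest copper genes. SLC30A3 and SLC30A10, below 1 TPM, are named to complete the wider list. Alternatives changed the pseudocount, unit, scaling, minimum level, trend and threshold of a call. The steps were tested on simulated data with counting variation alone and planted changes larger than the 2-fold call. The simulation held no variation between cultures, no GC trend and no reads with several matches, so it does not bear on those. Python 3.11.15, numpy 2.4.6, pandas 2.3.3 and scipy 1.17.1 were used.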

Additional observations from a re-analysis of the deposited data

How the results depend on the processing

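The count of the 10 genes at 2-fold or more was 0 in each direction under each of the 8 other settings of pseudocount, unit, scaling, minimum and trend, as was the count over the wider zinc list. At 1.5-fold on the log2(TPM + 1) scale, chosen after the values were seen, 2 genes were lower and 0 higher in either list. The 2 lower genes were SLC30A1 and SLC39A10, and both fell short of 1.5-fold with a pseudocount of 5, FPKM, either rescaling, the trend removed or coverage. FPKM gives smaller numbers, 4.44 and 2.87 for SLC30A1 where TPM gives 10.5 and 6.60, so the added 1 shrinks the difference more. SLC30A1, SLC39A10, SLC39A6, MT1X and SLC39A14 kept their sign over the 9 alternatives run for each: the log2 difference ranged from -0.66 to -0.42 for SLC30A1, from -0.65 to -0.41 for SLC39A10 and from -0.39 to -0.26 for SLC39A6. Of the alternatives, those that changed only the minimum level cannot alter a gene's own difference. They repeat the main value and are no check of its sign. The sign of MTF1, MT2A, SLC30A5 and SLC39A7 differed between settings, all within -0.10 to 0.16. MT2A and SLC39A7 were at -0.10 and -0.03 with the GC and length trend removed, and stayed above 0 under both rescalings. The trend was removed around its median, which leaves in the shift of the median gene, -0.08 over all measured genes. The rescalings take that shift out. A sign under the one is thus not set against the same 0 as under the other, and this is not a change of direction. The median over well expressed genes (a minimum of 10 TPM in each library) was -0.09, and centring on it moved the median of the 9 measured genes from -0.02 to 0.06. No paired analysis was possible because each group has 1 library. For genes listed at 0 the tables cannot tell absence from a failed estimate.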
